A study of Mus musculus with 9 samples.

Results

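The genes described here are the enzymes of glycolysis with their isozymes, the transporters and switches that set the flow of glucose and pyruvate, and genes of the hypoxia-inducible factor (HIF) system with HIF targets outside glycolysis. They were chosen by symbol from a fixed list of 36 genes, 17 of them glycolysis enzymes, 9 of transport and control of flux, and 10 of the HIF system and its targets outside glycolysis. All 36 were found among the 29756 entries of the expression table. RNA was sequenced from HT22, an immortalised mouse hippocampal neuronal line, in 3 libraries labelled experimental, 3 labelled intervention and 3 labelled control. The series title names hemin, the oxidised form of heme, and a micelle called PPP8, but the labels do not tell which cultures received either agent, at what dose or for how long, so the groups keep their label names. All 9 libraries share the cell line, and no genetic change is named for any group. The labels do not state that replicates were separate cultures; each p-value therefore reflects only how far these samples scatter, which may be technical.

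Glycolysis splits glucose into pyruvate in the cytosol, with phosphofructokinase as its main point of control, and lactate dehydrogenase turns pyruvate into lactate when it is not sent into mitochondria. HIF is a transcription factor whose alpha subunit is marked for breakdown by prolyl hydroxylases that need oxygen and iron, so its activity is set largely through protein stability. When HIF accumulates it binds a short core sequence near genes for glucose uptake, glycolysis, lactate handling and blood vessel growth. Neurons take up glucose mainly through GLUT3 and glia mainly through GLUT1, whereas dividing cell lines usually rely on GLUT1.

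The core bound by HIF was looked for in the promoters of these genes as RefSeq gives them on GRCm38.p6, from 250 bases before to 50 bases after each start site. The letters searched were ACGTG and GCGTG on both strands, and CACGTG, the E-box, which contains ACGTG on each strand. Of the 36 genes, 34 matched a promoter by symbol (not Slc2a3 or Ndrg1), and 31 of these 34 (91.2%) held the core in at least 1 window. The share was 69.8% of the 8400 genes among the tested entries that had a promoter, and 46.7% of all 27025 genes of the promoter table. A gene with several start sites had several chances, and these genes had 50 windows for 34 genes against 10664 windows for the 8400. By group, the core was present in 14 of 17 glycolysis enzymes, 8 of 8 genes of transport and flux control and 9 of 9 genes of the HIF system and targets. ACGTG was present in 67.6% of these genes against 30.4% of the 8400, GCGTG in 67.6% against 58.0%, and the E-box in 14.7% against 12.3%. A match describes letters in a window and does not show binding. The core was present in 21 of 24 genes called lower in experimental than in control cells, not in Gpi1, Tpi1 or Eno2. It was present in all 3 genes called higher that had a promoter. The 250 bases before the start site are printed for 5 genes that hold the core and whose RNA is described below. Of these 5, 4 were lower and 1, Slc16a1, was higher in experimental cells. Each runs 5′ to 3′ along the gene's strand, and capitals mark ACGTG or GCGTG or their reverse complements.
Pdk1 (chr2:71872974-71873223, plus strand): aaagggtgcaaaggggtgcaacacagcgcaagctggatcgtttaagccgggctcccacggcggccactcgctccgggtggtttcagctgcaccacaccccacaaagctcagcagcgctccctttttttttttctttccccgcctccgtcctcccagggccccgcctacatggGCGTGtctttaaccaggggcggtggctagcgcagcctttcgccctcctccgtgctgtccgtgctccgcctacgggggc
Ldha (chr7:46845554-46845803, plus strand): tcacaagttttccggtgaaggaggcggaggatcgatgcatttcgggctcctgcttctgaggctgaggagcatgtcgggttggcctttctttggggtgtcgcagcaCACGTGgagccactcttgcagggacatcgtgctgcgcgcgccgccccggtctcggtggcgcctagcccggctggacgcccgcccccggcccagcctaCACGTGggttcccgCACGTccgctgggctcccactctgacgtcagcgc
Pgk1 (chrX:106186850-106187099, plus strand): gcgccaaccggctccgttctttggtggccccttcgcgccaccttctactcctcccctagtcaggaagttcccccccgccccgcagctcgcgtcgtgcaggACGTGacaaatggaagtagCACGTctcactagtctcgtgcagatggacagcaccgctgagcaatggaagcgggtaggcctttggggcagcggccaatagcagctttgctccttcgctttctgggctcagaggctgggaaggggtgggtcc
Slc16a1 (chr3:104638414-104638663, plus strand): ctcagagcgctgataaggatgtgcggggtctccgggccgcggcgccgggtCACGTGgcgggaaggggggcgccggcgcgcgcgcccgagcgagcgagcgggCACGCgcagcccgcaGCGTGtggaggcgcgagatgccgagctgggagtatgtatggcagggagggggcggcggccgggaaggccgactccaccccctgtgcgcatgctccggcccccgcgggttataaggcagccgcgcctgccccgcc
P4ha1 (chr10:59323046-59323295, plus strand): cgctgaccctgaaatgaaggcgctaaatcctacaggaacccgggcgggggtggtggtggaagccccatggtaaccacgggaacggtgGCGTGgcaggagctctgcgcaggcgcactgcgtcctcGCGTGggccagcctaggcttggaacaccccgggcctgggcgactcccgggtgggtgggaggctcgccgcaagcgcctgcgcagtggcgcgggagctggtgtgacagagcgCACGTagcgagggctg
Ldha held 5 matches in these 250 bases, including 2 E-boxes, and Slc16a1 held 4, including 1 E-box. Each E-box counts as 2 matches, 1 on each strand, so these numbers are not counts of separate sites. P4ha1 held 3, Pgk1 2 and Pdk1 1.

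Expression was given as FPKM (fragments divided by gene length and by library size), a unit that keeps no read number, so the depth of each library is unknown. Summed FPKM was 316912 to 339943 per library, and no 2 of the 9 libraries were identical. Of 12 neuronal markers 9 stayed below 1 FPKM in every library, Rbfox3 and Map2 among them, and only Tubb3 and Camk2a passed the filter on low values, so the label neuronal rests on few of its usual markers. The microglia and blood list summed to 2.65 to 3.44 FPKM in experimental, 3.39 to 4.35 in intervention and 10.9 to 12.3 in control libraries. In controls this was mostly Tmem119, while 5 of the 7 markers stayed at or below 0.17 FPKM and Ptprc was at 0 in 8 of 9 libraries. Cd68, the other tested marker of the list, went the other way. It was 1.88 ± 0.299 FPKM in experimental against 1.23 ± 0.211 in control libraries (adjusted p = 0.0071, limma). The oligodendrocyte and endothelial list summed to 16.3 to 17.1 FPKM in experimental and intervention and 29.0 to 36.4 in control libraries, mostly Cspg4 and Pdgfra. The astrocyte list lay between 9.31 and 11.5 and the neuronal list between 7.72 and 13.0 FPKM. The astrocyte sum hides opposite shifts of its 2 tested markers in experimental against control libraries. Gja1 was higher (7.83 ± 0.0755 against 3.53 ± 0.355 FPKM) and Slc1a3 lower (2.10 ± 0.210 against 5.27 ± 0.407), both called by limma. The nuclear RNAs Neat1 and Malat1, read as signs of RNA quality, were both lower in experimental than in control libraries (adjusted p = 7.3e-06 and 0.0141, limma), and lower in intervention than in control libraries (adjusted p = 1.76e-05 and 0.00329), but not called between intervention and experimental libraries (adjusted p = 0.723 and 0.434). The part of these shifts in the results was not tested. In bulk RNA, fewer cells and less RNA per cell cannot be told apart.

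Experimental cells held less mRNA for nearly every enzyme of glycolysis than control cells, while Slc16a1, Slc2a1 and Vegfa mRNA was higher. An entry was tested when it reached 1 FPKM in at least 3 of 9 libraries, and 31 of the 36 genes did so. Of these 31, 24 fell, 4 rose (Slc2a1, Slc16a1, Vegfa and Ndrg1) and 3 did not pass the test (Hk2, Hif1a and P4ha2), by limma on log2(FPKM + 1) with Benjamini-Hochberg adjusted p under 0.05 over all 11974 tested entries. Over all tested entries 50.5% fell and 23.5% rose. The median difference was -0.76 log2 units for the 31 genes against -0.21 for all tested entries. Among glycolysis enzymes 15 of 16 tested fell and none rose (median -0.82), in transport and flux control 4 of 6 fell and 2 rose (median -0.91), and among HIF targets outside glycolysis 4 of 7 fell and 2 rose. Of those 4, Car9 and Ankrd37 reached 1 FPKM in control libraries only, so they could enter the test only by being high there. Without them 2 of 5 such targets fell and 2 rose (median -0.20), and 22 of 29 genes in all fell and 4 rose (median -0.66). The same rule left out 284 of all tested entries, and of the rest 49.5% fell and 23.8% rose. Median-ratio scaling, which moves the median of all tested entries from -0.21 to 0.003, left 11 of 16 glycolysis enzymes lower and made 1, Hk2, higher, and left 20 of the 31 genes lower and 6 higher. Over all tested entries it left 4357 lower and 4380 higher, in place of 6047 and 2809. The experimental and control libraries did not overlap in 29 of the 31, as in 76.2% of all tested entries. Car9 and Ankrd37 are among the 29, and for them the filter alone fixed this separation. The 76.2% likewise keeps the 284 entries that reached 1 FPKM in 1 group only.

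**Figure D1:**
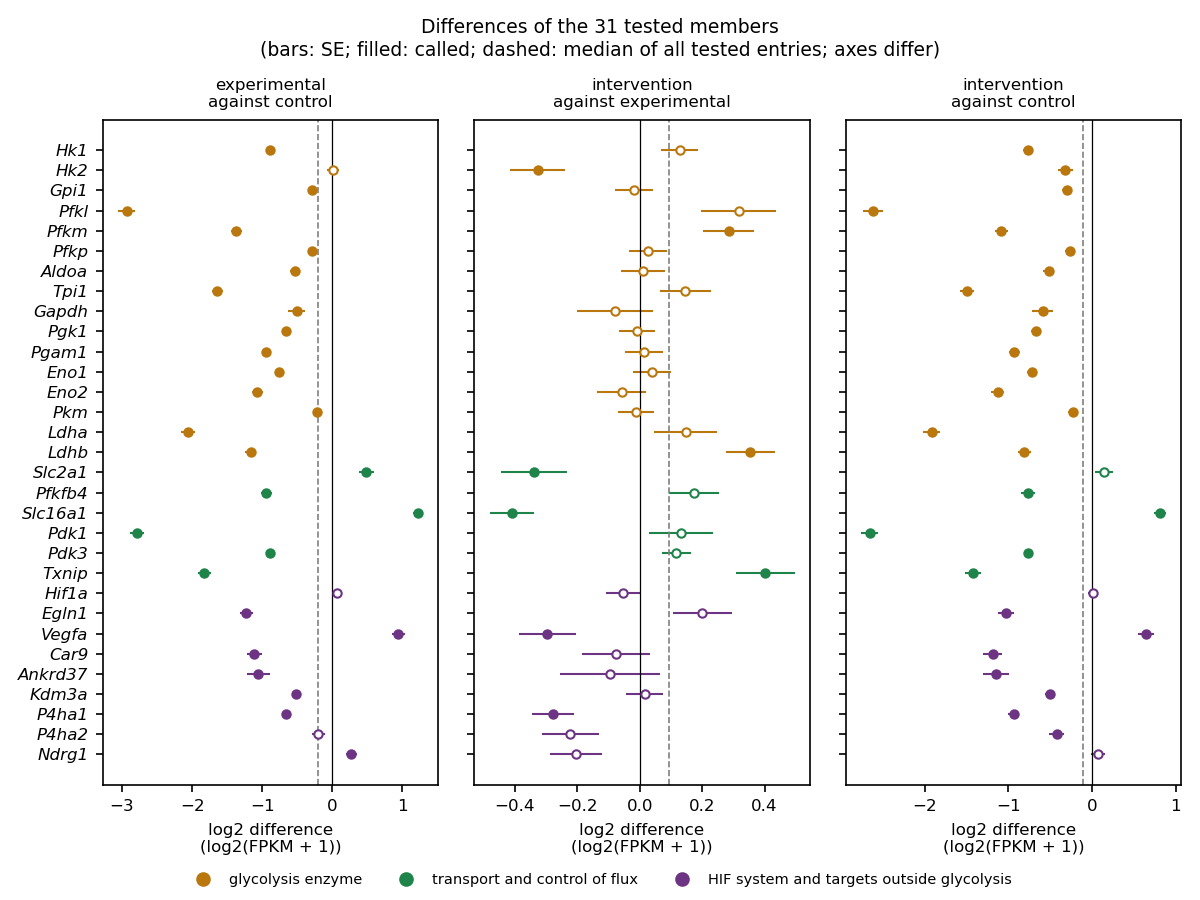
Log2 differences (log2(FPKM + 1) scale, x axes of different width) of the 31 tested genes in each of the 3 comparisons, with bars for the standard error, filled points for called genes and a dashed line at the median of all tested entries. In experimental against control the glycolysis enzymes lie left of 0 apart from Hk2, at 0.01, while Slc16a1 lies at 1.22; Car9 and Ankrd37 reached 1 FPKM in control libraries only.

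The mRNA of the main glucose importer rose and that of Hk1 fell, while Hk2 did not pass the test as deposited. Slc2a1, which encodes GLUT1 (chromosome 4, 119108711 to 119137983, plus strand of mm10), stood at 90.3, 85.4 and 84.6 FPKM in the experimental libraries against 71.6, 62.1 and 52.9 in controls. It rose by 0.48 log2 units (SE 0.11, adjusted p = 0.00199), and the groups did not overlap. Slc2a3, the neuronal GLUT3, was at most 0.10 FPKM in any library and was not tested. The other glucose transporters that were tested, on a list of further genes described below, were all called lower as deposited. Hk1, the hexokinase bound to the mitochondrial outer membrane in most tissues, was at 19.7, 20.9 and 19.8 FPKM against 39.8, 35.1 and 39.3 in controls, a fall of 0.89 log2 units (SE 0.06, adjusted p = 6.3e-07). Hk2, the inducible hexokinase, was at 14.6, 13.5 and 15.4 FPKM against 16.2, 13.1 and 14.0, which did not pass the test (0.01, SE 0.09, adjusted p = 0.914), but was called higher after median-ratio scaling (0.25, adjusted p = 0.0354). Gpi1, the next enzyme, was 77.9 ± 1.81 FPKM against 95.2 ± 7.49 (SD, n = 3 each), a fall that did not hold after median-ratio scaling (adjusted p = 0.00192 as deposited, 0.636 scaled).

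Phosphofructokinase, the committed step, showed the steepest fall of any glycolytic step. Pfkl, the liver-type subunit (chromosome 10, 77986947 to 78010083, minus strand), stood at 5.48, 6.70 and 6.16 FPKM in experimental libraries and at 63.6, 52.0 and 45.7 in controls. Every experimental library was far below every control, a fall of 2.94 log2 units (SE 0.12, adjusted p = 4.81e-08) and 8.80-fold on mean FPKM. Pfkm, the muscle-type subunit, went to 10.2, 9.66 and 8.70 FPKM from 27.2, 25.4 and 25.7 (log2 difference -1.37, SE 0.08, adjusted p = 3.52e-07). Pfkp, the platelet-type subunit, was 4.96 ± 0.199 against 6.27 ± 0.493 FPKM (-0.29), and it was not called after median-ratio scaling or after quantile normalization (adjusted p = 0.00177 as deposited, 0.291 and 0.723 scaled). Pfkm and Pfkp overlap exons of other genes, and no source used here tells whether strand was used. Summed over the 3 subunits, the step held 20.6 ± 0.763 FPKM against 86.1 ± 10.4, a ratio of 0.239.

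Steps from aldolase to triose phosphate isomerase fell unequally. Aldoa, the main aldolase, was 250.9 ± 6.70 FPKM against 363.9 ± 35.5 in controls (-0.53, SE 0.07, adjusted p = 6.64e-05). Tpi1, which interconverts the 2 triose phosphates, stood at 89.1, 94.8 and 90.5 FPKM against 314.1, 300.4 and 249.8. It fell 3.15-fold on mean FPKM (log2 difference -1.64, SE 0.08, adjusted p = 1.27e-07), with no library of either group near the other. Its exons overlap Spsb2 on the opposite strand.

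The entry for Gapdh does not measure the enzyme alone. It was only 9.98, 9.18 and 9.59 FPKM in experimental and 16.1, 15.9 and 10.8 in control libraries, while 86 of 92 near-identical copies elsewhere in the genome have entries of their own, which held 99.4% of the summed FPKM in controls. With those copies added, Gapdh was 2297 ± 82.9 FPKM in experimental and 2711 ± 157 in control libraries (log2 difference -0.24, adjusted p = 0.00505), close to the median of all tested entries, and the single entry was not called after median-ratio scaling (adjusted p = 0.00349 as deposited, 0.0603 scaled). Eno1, an enolase, shared 71.4% of such a sum with copies and gave a ratio of 0.590 with them and 0.588 alone. Copies of Pgam1 held 12.8% and those of Pgk1 9.16%, and the ratios of both were nearly the same with and without them (0.518 and 0.519, 0.630 and 0.631).

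The later steps of the pathway fell by less than phosphofructokinase. Pgk1, which makes the first ATP (chromosome X, 106187100 to 106203699, plus strand), stood at 320.7, 311.8 and 307.7 FPKM against 521.7, 514.2 and 453.5 (-0.66, SE 0.06, adjusted p = 3.32e-06). Pgam1, a phosphoglycerate mutase, went from 515.8 ± 43.4 to 267.7 ± 4.05 FPKM (-0.94), and Eno1 from 230.6 ± 16.6 to 135.7 ± 5.86 (-0.76). Eno2, the neuron-type enolase, fell from 5.34 ± 0.621 to 2.01 ± 0.0200 FPKM (-1.07, adjusted p = 1.08e-06). Pkm, pyruvate kinase, which makes pyruvate and ATP, was 428.6 ± 6.78 against 497.4 ± 37.9 FPKM (-0.21, adjusted p = 0.00772), a call that was lost and turned to 0.04 after median-ratio scaling.

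**Figure D2:**
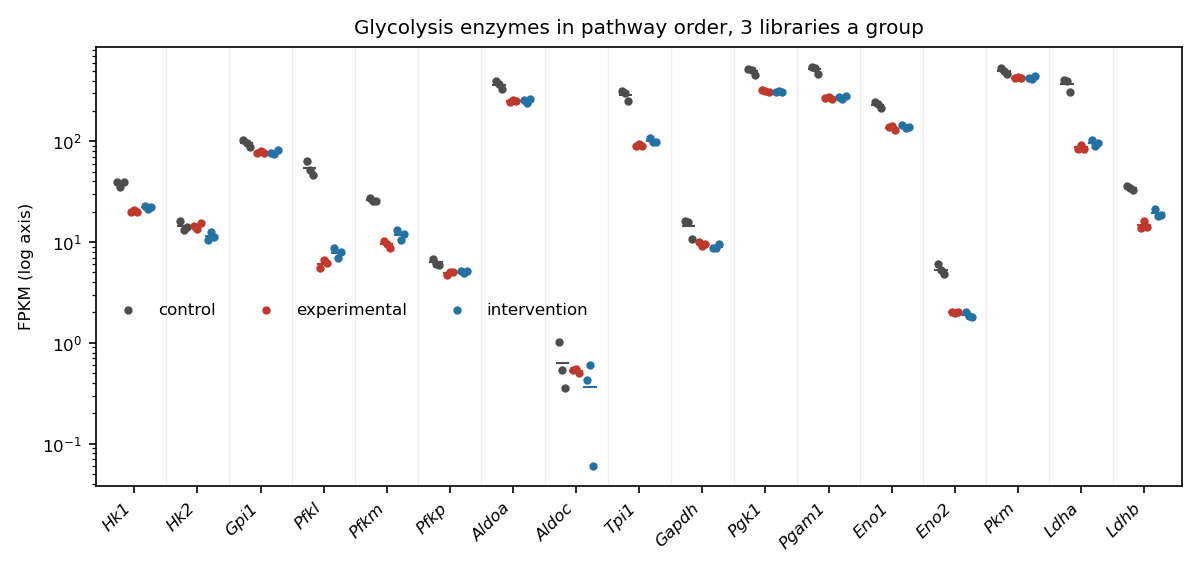
FPKM on a log axis of the 17 glycolysis enzymes in pathway order, 1 point per library and a line at each group's mean. Control points sit above the other groups for Pfkl, Tpi1 and Ldha, while Hk2 overlaps between experimental and control, and Gapdh is low because its copies have entries of their own.

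Lactate dehydrogenase fell nearly as far as phosphofructokinase. Ldha, the subunit that favours lactate (chromosome 7, 46841475 to 46855627, plus strand), stood at 84.6, 92.0 and 84.0 FPKM in experimental and at 408.7, 391.8 and 305.6 in control libraries. It fell by 2.06 log2 units (SE 0.10, adjusted p = 1.1e-07). Ldhb, the subunit that favours pyruvate, went from 34.4 ± 1.93 to 14.8 ± 1.30 FPKM (-1.17, adjusted p = 6.52e-07). Slc16a1, the lactate and pyruvate carrier MCT1 (chromosome 3, 104638668 to 104658462, plus strand), went the other way. It stood at 56.0, 48.7 and 52.9 FPKM against 22.1, 22.5 and 21.1, a rise of 1.22 log2 units (SE 0.07, adjusted p = 2.78e-07) and 2.40-fold. Slc16a3, the carrier MCT4, was at most 0.14 FPKM and not tested.

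The 4 tested switches on pyruvate and glucose use fell. Pdk1, a kinase that shuts pyruvate dehydrogenase (chromosome 2, 71873224 to 71903858, plus strand), stood at 1.23, 1.07 and 1.05 FPKM in experimental libraries against 15.9, 13.6 and 11.7 in controls. This is a fall of 12.3-fold on mean FPKM (log2 difference -2.79, SE 0.10, adjusted p = 2.89e-08), the largest ratio of the 31 genes. Pdk3, a kinase of the same family, was 11.2 ± 0.285 against 21.5 ± 0.770 FPKM (-0.88, adjusted p = 1.6e-07). Txnip, which holds back glucose uptake and thioredoxin, fell from 27.8 ± 0.697 to 7.15 ± 0.961 FPKM (-1.83, adjusted p = 1.42e-07), with an antisense gene overlapping it. Pfkfb4, which sets fructose 2,6-bisphosphate, the activator of phosphofructokinase, fell from 3.48 ± 0.0603 to 1.34 ± 0.185 FPKM (-0.94, adjusted p = 2.8e-06). Pfkfb3, the kinase-dominant form, went to 0.80, 0.71 and 0.91 FPKM from 0.38, 0.40 and 0.34. It lay below the filter, and without the filter it was called higher (0.39, adjusted p = 0.00329).

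The HIF subunit itself did not pass the test. Hif1a stood at 38.1, 35.5 and 37.2 FPKM in experimental and 33.2, 36.7 and 35.9 in control libraries (0.07, SE 0.05, adjusted p = 0.295), though it was called higher after median-ratio scaling (0.31, adjusted p = 0.00105). Egln1, the main HIF prolyl hydroxylase, was 7.73, 10 and 8.56 FPKM against 23.1, 23.3 and 19.1 (-1.23, SE 0.09, adjusted p = 1.49e-06). Egln3 was listed at 0 in 8 of 9 libraries and was not tested. Outside glycolysis, Vegfa, the blood vessel growth factor (chromosome 17, 46016993 to 46032369, minus strand), stood at 58.3, 53.9 and 63.2 FPKM against 33.3, 29.0 and 27.7. It rose by 0.94 log2 units (SE 0.09, adjusted p = 7.18e-06), and no library overlapped. Ndrg1, a stress-responsive gene, was 47.9 ± 2.15 against 39.6 ± 4.41 FPKM (0.27, adjusted p = 0.0125).

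The HIF targets outside glycolysis that were lower included 2 at low levels. Car9, a carbonic anhydrase of the cell surface, was at 0.37, 0.31 and 0.44 FPKM against 2.34, 2 and 1.60 in controls. Ankrd37, a small ankyrin repeat protein, was at 0.52, 0.44 and 0.25 against 2.30, 2.32 and 1.23. Both passed the filter through the control libraries alone, so a call of lower was built into their selection, and their values are given without a test. Kdm3a, a histone demethylase, was 15.4 ± 0.182 against 22.4 ± 1.97 FPKM (-0.51), and P4ha1, a collagen prolyl hydroxylase, 38.9 ± 1.43 against 61.9 ± 3.84 (-0.66, adjusted p = 9.13e-06). P4ha2, of the same family, was 12.7 ± 0.471 against 14.8 ± 1.99 FPKM and did not pass the test (adjusted p = 0.0734), and it turned from -0.20 to 0.04 after median-ratio scaling. Without control replicate 3 it was lower by limma (-0.27, adjusted p = 0.0315), as it was after scaling to TPM (-0.27, adjusted p = 0.0311).

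**Figure D3:**
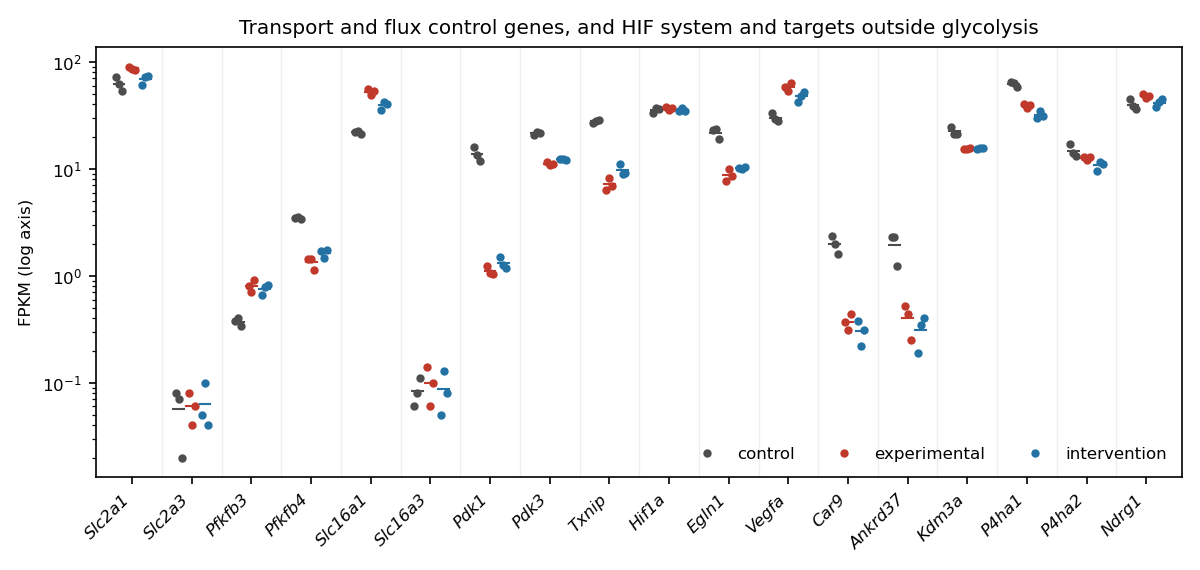
FPKM on a log axis of the genes of transport and flux control and of the HIF system and targets outside glycolysis, 1 point per library and a line at each group's mean, Egln3 left out because it was 0 in 8 of 9 libraries. Slc16a1 and Vegfa lie highest and Txnip lowest in experimental libraries. Pdk1 and Egln1 lie below control in experimental and intervention libraries, which overlap for both genes, and Hif1a overlaps in all 3 groups.

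Isozymes of 1 step did not fall by the same ratio. Pfkl made up 62.2% ± 3.02 of the phosphofructokinase FPKM in controls and 29.7% ± 2.44 in experimental libraries, while Pfkm went from 30.5% to 46.2% and Pfkp from 7.31% to 24.1%. Pdk1 was 38.9% of the summed Pdk1 and Pdk3 in controls and 9.06% in experimental libraries, and 26.8% and 5.60% of the sum that also counts Pdk2 and Pdk4. Hk1 went from 72.6% to 58.1% of hexokinase, Ldha from 91.4% to 85.5% of lactate dehydrogenase and P4ha1 from 80.8% to 75.4% of the listed collagen hydroxylases. In 10 of 13 shares the experimental and control libraries did not overlap. The 76.2% of all tested entries that did not overlap is a count of FPKM levels, an unlike measure. It is therefore no background for shares within a step, and none was computed. The phosphofructokinase shares add up to the whole of that step, so they are not separate results. An exact permutation test, 2-sided, cannot go below 0.10 with 3 libraries against 3, and over 39 tests the lowest adjusted p was 0.17. A share is not moved by the scaling of a library.

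**Figure D4:**
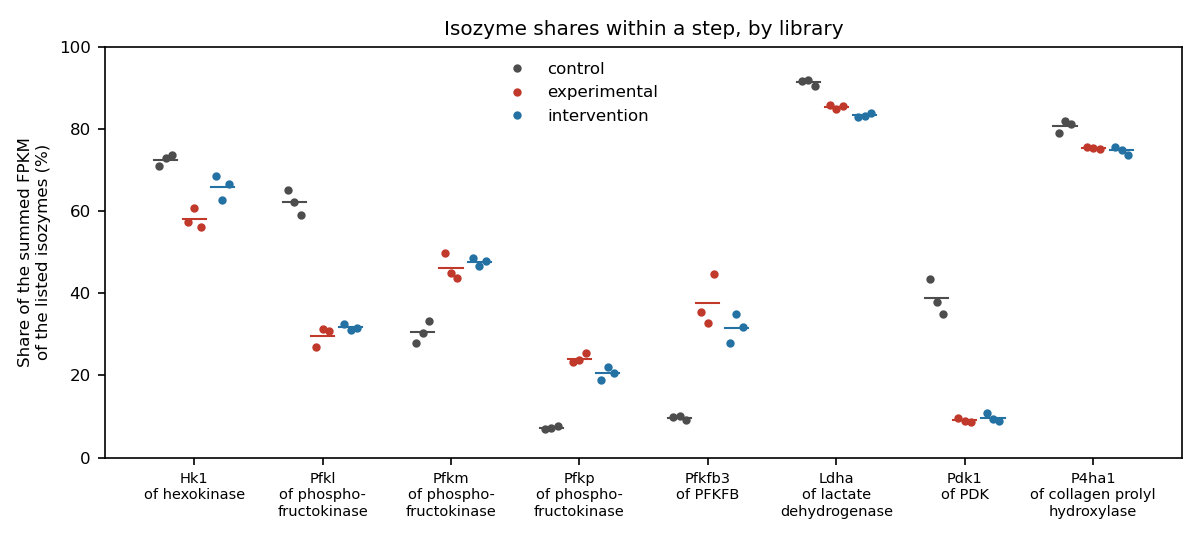
Share in percent of a step's summed FPKM held by 1 isozyme, 1 point per library and a line at each group's mean, for 8 of the 13 shares. Pfkl falls from 62.2% in control to 29.7% in experimental libraries and Pdk1 from 38.9% to 9.06%, with no overlap in either.

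Summed over all 17 glycolysis enzymes, FPKM was 1729.6, 1769.1 and 1705.2 in experimental and 3280.9, 3128.3 and 2739.1 in control libraries, a ratio of 0.569. The sum holds only a small part of the Gapdh signal. With the near-identical copies of all its enzymes added it was 4441 ± 131 against 6465 ± 493 FPKM, a ratio of 0.687, and without Gapdh and its copies, other copies added, the ratio was 0.571. Control replicate 3 was the lowest control for 24 of the 31 genes and for 13 of 16 tested glycolysis enzymes, against 38.0% of all tested symbols. All 28 calls of the comparison held when it was left out, among them Car9 and Ankrd37, which passed the filter through control libraries only. The median coefficient of variation of the 31 genes was 8.79% in control, 4.17% in experimental and 6.73% in intervention libraries, against 6.97%, 6.53% and 7.03% over all tested symbols.

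Intervention cells differed from experimental cells in 8 of the 31 tested genes, beside 2337 of all 11974 tested entries. Of the 31, 3 rose (Pfkm, Ldhb and Txnip), 5 fell (Slc2a1, Hk2, Slc16a1, Vegfa and P4ha1) and 23 did not pass the test. Over all tested entries 15.9% rose and 3.6% fell, and the median was 0.01 for the 31 genes against 0.10 for all tested entries. After median-ratio scaling 2 of the 31 rose and 6 fell, and over all tested entries 567 rose and 946 fell in place of 1906 and 431. Slc16a1 stood at 35.7, 42.1 and 40.1 FPKM in intervention against 56.0, 48.7 and 52.9 in experimental libraries (-0.41, SE 0.07, adjusted p = 0.0151). Vegfa stood at 42.5, 47.9 and 52.2 FPKM against 58.3, 53.9 and 63.2 (-0.30, adjusted p = 0.0484), and Slc2a1 at 60.2, 72.3 and 73.3 against 90.3, 85.4 and 84.6 (-0.34, adjusted p = 0.0492). Both lie close to the threshold, although their libraries did not overlap, as was so for 15 of the 31 genes and 42.5% of all tested entries.

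Hk2 fell from 14.5 ± 0.947 to 11.4 ± 1.03 FPKM (-0.33, adjusted p = 0.0312) and P4ha1 from 38.9 ± 1.43 to 32.0 ± 2.48 (-0.28, adjusted p = 0.0235). Ldhb rose from 14.8 ± 1.30 to 19.2 ± 1.73 FPKM (0.35, adjusted p = 0.0201), Txnip from 7.15 ± 0.961 to 9.77 ± 1.18 (0.40, adjusted p = 0.0223) and Pfkm from 9.52 ± 0.755 to 11.8 ± 1.37 (0.29, adjusted p = 0.0393). Pfkl was 8.79, 6.94 and 7.88 FPKM against 5.48, 6.70 and 6.16 and did not pass the test (0.32, adjusted p = 0.0844), nor did Ldha, at 96.4 ± 6.21 against 86.9 ± 4.42 FPKM (adjusted p = 0.306), or Pdk1 (adjusted p = 0.364). The 8 calls were all lost when 1 library was left out, for example without experimental replicate 1 or 3 or intervention replicate 1, where no gene of the 31 was called. In those fits nearly all calls over all tested entries were lost too, leaving 1, 4 and 3 higher and 0, 0 and 3 lower. With the replicate block Slc2a1, Hk2 and Vegfa were not called.

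The intervention group still differed from the control group in most of these genes. Of the 31, 26 fell, 2 rose (Slc16a1 and Vegfa) and 3 did not pass the test (Slc2a1, Hif1a and Ndrg1), against 41.1% lower and 24.1% higher over all tested entries (2890 higher and 4926 lower, or 3912 and 3876 after median-ratio scaling). Without Car9 and Ankrd37, 24 of 29 fell. The groups did not overlap in 28 of the 31, as in 68.7% of all tested entries. Car9 and Ankrd37 are among the 28, and for them the filter alone fixed this separation. The 68.7% likewise keeps entries that reached 1 FPKM in 1 group only. All 16 tested glycolysis enzymes fell, 13 of them also after median-ratio scaling, where Hk2, Pfkp and Pkm were not called. Pfkl was 7.87 ± 0.925 against 53.8 ± 9.03 FPKM (-2.62, SE 0.12, adjusted p = 1.38e-07), Pdk1 1.32 ± 0.167 against 13.7 ± 2.10 (-2.66, adjusted p = 5.4e-08) and Ldha 96.4 ± 6.21 against 368.7 ± 55.3 (-1.91, adjusted p = 2.95e-07). Slc16a1 was 39.3 ± 3.30 against 21.9 ± 0.721 FPKM (0.81) and Vegfa 47.5 ± 4.87 against 30.01 ± 2.90 (0.64, adjusted p = 0.000151). Slc2a1 was 68.6 ± 7.30 against 62.2 ± 9.35 FPKM (0.14, adjusted p = 0.26) as deposited and was called higher after median-ratio scaling (0.28, adjusted p = 0.048). The mean of the intervention group lay between the other groups for 21 of the 31 genes. That share was not computed over all tested entries. Some of these means lay close to the experimental mean, as for Pgam1 (270.4 in intervention, 267.7 in experimental and 515.8 FPKM in control libraries). Summed glycolysis enzymes reached 1763 ± 41.4 FPKM in intervention libraries, a ratio of 0.578 to control, or 0.692 with copies added. The comparisons share their control or experimental libraries, so the values are given side by side and not as separate support.

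Genes next to these pathways were followed by lists that were chosen with earlier results of these data known. Of 38 tested HIF targets beyond those above, 13 rose and 22 fell in experimental against control cells, or 34.2% and 57.9% beside 23.5% and 50.5% of all tested entries, with a median of -0.45 log2 units beside -0.21. Lox, a collagen cross-linking enzyme, went from 244.3 ± 7.97 to 71.1 ± 2.67 FPKM, Bhlhe40, a repressor, from 23.5 ± 1.36 to 6.20 ± 0.244, Ypel5 from 6.13 ± 0.393 to 20.8 ± 1.26, and Hmox1, the heme-degrading enzyme, from 21.7 ± 2.94 to 2211 ± 220.2 FPKM. In intervention against experimental cells, 4 of the 38 rose (10.5%), 9 fell (23.7%) and 25 did not pass the test, beside 15.9% and 3.6% of all tested entries. After median-ratio scaling, which turned the balance over all entries as given above, 1 of the 38 rose and 13 fell. Of 14 tested HIF subunits and oxygen-sensing genes, 3 rose and 6 fell (median -0.07); 1 of the 3, Arnt2, reached 1 FPKM in intervention libraries only. Cited2, which competes with HIF for its coactivators, was 19.3 ± 0.711 against 36.2 ± 3.18 FPKM, Arnt, the partner of HIF alpha subunits, 8.34 ± 0.165 against 12.8 ± 0.244, and Siah2, a ligase acting on the prolyl hydroxylases, 12.6 ± 0.848 against 6.26 ± 0.454. Egln2, another HIF prolyl hydroxylase, was 14.8 ± 1.47 against 22.2 ± 1.43 FPKM.

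Of 18 tested further isozymes and glycolytic genes, 12 fell (66.7%) and 3 rose (16.7%), with a median of -0.42. Pgm1, which links glycogen to glycolysis, went from 64.6 ± 9.13 to 23.3 ± 0.800 FPKM, Galk1, galactokinase, from 25.3 ± 1.004 to 8.82 ± 1.22, and Eno3, the muscle enolase, from 16.0 ± 0.464 to 7.45 ± 0.680. Eno1b, one of the copies of Eno1, was 134.0 ± 2.56 against 229.4 ± 14.6 FPKM. Of 13 genes of pyruvate entry into mitochondria, 5 rose (38.5%) and 6 fell (46.2%), the latter share near that of all tested entries, and the median was -0.14. Pdk2, a sister of Pdk1, fell from 6.19 ± 0.571 to 0.793 ± 0.154 FPKM, Pdha1, a subunit of pyruvate dehydrogenase, from 84.0 ± 3.601 to 54.7 ± 1.71, and Dlat, the acetyltransferase of the same complex, from 24.4 ± 1.20 to 16.9 ± 0.492, while Pcx, pyruvate carboxylase, rose from 13.7 ± 0.369 to 24.3 ± 1.29. Of 6 MondoA and ChREBP genes, 1 rose (Arrdc4) and 2 fell (Klf10 and Mxd4), with a median of 0.04. Of 9 MYC and regulator genes, 5 rose (55.6%) and 3 fell (33.3%), with a median of 0.27. Trp53, the tumour suppressor p53, was at 87.03 ± 0.643 against 53.2 ± 1.63 FPKM, Myc at 43.6 ± 1.59 against 22.3 ± 0.888, Max, the partner of MYC, at 16.6 ± 0.413 against 10.9 ± 0.325, and Mtor, a growth kinase, at 5.66 ± 0.290 against 9.15 ± 1.001. After median-ratio scaling the balance in experimental against control turned for HIF subunits and oxygen sensing (7 rose and 4 fell), for pyruvate entry (6 rose and 5 fell) and for MondoA and ChREBP genes (4 rose and 2 fell). It kept its side for the other HIF targets (16 rose and 20 fell), the further isozymes and glycolytic genes (5 rose and 10 fell) and the MYC list (6 rose and 2 fell).

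The other 5 genes lay below the filter and were not tested. Slc2a3, Slc16a3 and Egln3 were at most 0.10, 0.14 and 0.05 FPKM in any library. Aldoc, the brain aldolase, was 0.53 ± 0.0265 in experimental, 0.363 ± 0.276 in intervention and 0.637 ± 0.336 FPKM in control libraries. Pfkfb3 is given above. Of the 36 genes, 14 have exons that overlap another gene and 9 have near-identical copies elsewhere, so these entries are uncertain as single genes.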

How the data were processed

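Libraries came from a SMARTer mRNA kit after Qiagen extraction, per the labels' protocols. The authors deposited 1 table of FPKM with 29756 entries. The build is mm10, per the submitters' processing notes. The aligner, counter, annotation and strand setting: not given in the sources used here. No column was left unmapped to a sample. From these values, log2(FPKM + 1) was tested with limma 3.58.1 in R 4.3.3 (trend, all 9 libraries in 1 fit, no covariate) for 11974 entries with at least 1 FPKM in at least 3 libraries. For 61 entries repeating a symbol, the entry with the higher mean kept the symbol; Aldoa is one. Calls used an adjusted p under 0.05, 2-sided, within a comparison. Fold changes on this scale understate change of low genes.

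All 36 genes are named whatever they show, with up to 4 genes per other list by smallest adjusted p in experimental against control. Members and lists were chosen with earlier results of these data known. Near-identical copies (at least 300 aligned nt at 95% identity, blastn 2.17.0, GENCODE M21) were summed, and entries reaching 1 FPKM in 1 group only were left out, as alternatives chosen after seeing the data. Positions are from GENCODE M21 on mm10. The alternatives were another pseudocount, 2 other filters, 3 other scalings, only the 2 groups compared, the replicate block and leaving out each library. Without counts, precision rests on the spread between replicates. The tests were checked on simulated data.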

Additional observations from a re-analysis of the deposited data

How the results depend on the processing

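All 28 calls of experimental against control and all 28 of intervention against control held in every fit that left out 1 library. Both sets include Car9 and Ankrd37, whose calls of lower were built into their selection, so that these held is no support. Among the other settings 24 and 25 of them held. After median-ratio scaling Gpi1, Pfkp, Gapdh and Pkm were not called in the first comparison and Hk2, Pfkp and Pkm not in the second, and quantile normalization ended the call of Pfkp in both and of Hk2 in the second. The cause was not tested beyond the shift of the median of all entries. The depth is unknown, so the precision at any level rests on the spread between replicates alone.

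For intervention against experimental, calls of genes that rose numbered 3 and of genes that fell 5. Without a filter on low values they were 0 and 1, when 29410 entries were tested and 273 rose and 85 fell. After quantile normalization they were 1 and 3. Leaving out each library gave 0 to 3 that rose and 0 to 5 that fell. The replicate block gave 3 and 2, and over all entries 1044 rose and 224 fell with it, against 1906 and 431 without it. Deviations of same-numbered libraries correlated at -0.182 to 0.11, and those of other pairs across groups at -0.14 to 0.149. This shows no pairing by number but, with 3 libraries a group, cannot exclude it. The block changed no call against control. Over all entries, leaving out experimental replicate 1 left 1 higher and 0 lower.

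Directions that turned belong to differences that did not pass the test, except Pkm in experimental against control. There, median-ratio scaling gave 0.0408 for Pkm and 0.0369 for P4ha2, scaling to TPM gave -0.0516 for Hk2, and leaving out libraries gave -0.0534 to 0.0912 for Hk2. In intervention against experimental, median-ratio scaling gave -0.072 for Pfkp, -0.106 for Aldoa, -0.103 for Pgam1, -0.0781 for Eno1, -0.0943 for Kdm3a. In the same comparison quantile normalization gave -0.0949 for Pfkp, -0.0127 for Aldoa, -0.0119 for Pgam1, 0.00219 for Pkm, -0.045 for Kdm3a, and scaling to TPM gave -0.00215 for Aldoa. Leaving out libraries there gave -0.053 to 0.00956 for Gpi1, -0.00133 to 0.0414 for Pfkp, -0.0141 to 0.0517 for Aldoa, -0.0211 to 0.00877 for Pgk1, -0.00511 to 0.0379 for Pgam1, -0.0355 to 0.00852 for Pkm. In intervention against control, scaling to TPM gave -0.0657 for Hif1a and -0.00701 for Ndrg1, and leaving out libraries gave -0.0298 to 0.0393 for Hif1a.

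Shares taken over every listed isozyme turned in 5 cases. They became 6.74 points for Slc2a1 in intervention against control, 0.0479 for Aldoa in experimental against control, and, in intervention against experimental, -0.0231 for Aldoa, -0.403 for Eno1 and -0.617 for Egln1. With libraries left out, shares ranged over -0.0233 to 0.0201 points for Slc2a1 and -0.0382 to 0.0755 for Aldoa in intervention against control, -0.0663 to 0.0176 for Slc16a1 in intervention against experimental, and -0.29 to 0 and 0 to 0.29 for Egln1 in experimental against control and intervention against experimental.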
